A study of Mus musculus with 18 samples.

Results

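Oxidative phosphorylation was followed through the 81 nuclear genes whose probe sets carry exactly 1 gene symbol of the families Ndufa, Ndufb, Ndufc, Ndufs and Ndufv (numbered members), Sdha to Sdhd, Uqcr, Cyc1, Cox4 to Cox8 and Atp5. They were 81 of 22180 genes with 1 symbol on the array, and 90 of the 23521 probe sets with 1 symbol. By gene symbol, 33 were assigned to respiratory complex I, 4 to complex II, 9 to complex III, 17 to complex IV and 18 to complex V. Ndufa4 and its relative Ndufa4l2 count among the 33 by symbol only. A gene with more than 1 probe set was represented by the one of highest mean in the tissue. Ndufb2, Ndufb4, Ndufs6, Cox6c and Uqcr10 stood on probe sets with several symbols and were not included, and 2 of the 81 are pseudogenes, Atp5c1-ps and Uqcrh-ps1.

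The respiratory chain lies in the inner mitochondrial membrane. Complex I (NADH dehydrogenase) and complex II (succinate dehydrogenase) pass electrons to ubiquinone, complex III passes them to cytochrome c, and complex IV (cytochrome c oxidase) passes them to oxygen. The proton gradient built by complexes I, III and IV drives complex V, the ATP synthase. Most subunits are encoded in the nucleus and imported, a few core subunits of complexes I, III, IV and V are encoded in mitochondrial DNA, and complex II is nuclear throughout. Hepatocytes and the absorptive cells of the intestine are both rich in mitochondria.

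The arrays came from recipients that had been germ-free, that is, raised without microbes, until they were colonised at 5 to 6 weeks of age. OMT recipients were given the gut microbiota of old donors, about 24 months of age in the design text and 2 years in the sample labels. YMT recipients were given that of young donors, 4 weeks of age in the protocol and 5 to 6 weeks in the design text. All recipients were of the C57BL/6 background, were sampled 8 weeks after the transfer, and were 12 or 13 weeks of age by the labels, which differ. Small intestine and liver were each measured in 5 OMT and 4 YMT recipients, with 1 Affymetrix whole-transcript array per sample, and the growth protocol names metabolism in the 2 tissues as the subject. How many donors or cages stood behind each group was not used here, so a shared donor or cage cannot be told apart from donor age.

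Values are log2 array levels, and differences are OMT minus YMT with their standard error (SE). Probe sets differ in their response, so levels are compared between samples and never between genes. Adjusted p-values are from limma, a linear model with a variance shared across genes, with Benjamini-Hochberg adjustment over all genes tested in the tissue, and a gene is said to have fallen or risen where that value was under 0.05. Testing was limited to genes brighter than the median probe set on 4 or more arrays out of the 9 of a tissue. Precision is bounded by how many arrays there are, and in a whole tissue fewer cells of a type and less RNA per cell cannot be told apart.

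The tissue labels held for the markers of the main cell types. Hepatocyte markers averaged 12.01 ± 0.05 in OMT and 11.98 ± 0.03 in YMT livers, and enterocyte markers 12.25 ± 0.12 in OMT and 12.04 ± 0.34 in YMT intestines (SD, n = 5 and 4). Markers of other cells had calls too, to be read beside the shares of all genes. In liver 8.78% of all genes fell and 10.4% rose, and in intestine 3.10% fell and 1.04% rose. Single calls in short lists say little beside these shares, and no such share was computed for list means. In liver, 4 of 7 endothelial markers fell, 1 of 6 tested macrophage markers and 3 of 7 smooth muscle markers, and the mean of each list was below every YMT array on every OMT array. Of 7 tested markers of fibroblasts and stellate cells, 4 fell and 1 rose in liver, with a list mean of 5.73 to 5.94 on the OMT arrays, against 5.88 to 6.27 on the YMT arrays. Of 3 tested cholangiocyte markers 1 fell in liver. The mean of the enterocyte list was above every YMT liver on every OMT liver, with 1 of 4 tested markers risen, and that of the enteroendocrine list was below, with none of 3 passing. In intestine, 1 of 7 goblet cell markers and 2 of 7 markers of T and NK cells fell, and the goblet cell mean was 10.93 to 11.49 on the OMT arrays, against 11.53 to 11.75 on the YMT arrays. Their part in the results below was not tested. A few arrays stood apart in the subunits themselves: OMT replicates 1 and 2 were the lowest OMT arrays for 35 and 32 of the 74 tested members in liver, and in intestine OMT replicate 1 was the highest OMT array for 43 of 74. In intestine the probe sets for small nucleolar RNAs were also highest on OMT replicates 1 and 2, at 8.84 and 8.37, against 7.36 to 7.88 on the YMT arrays. In liver these probe sets were highest on OMT replicate 4, at 7.96, against 7.03 to 7.51 on the YMT arrays. That replicate was also the highest OMT liver for 48 of the 74 members.

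In liver all members that passed the test were lower in OMT recipients. Of 74 members tested, 14 fell and none rose, which is 18.9% of the members, beside 8.78% of all 13380 genes tested that fell and 10.4% that rose. The difference was negative for 62 of the 74, with a median of -0.17, while the median over all genes was -0.01 and 51.0% of them were negative. At an unadjusted p under 0.05, 26 members were lower and 1, Cox7a2l, was higher, but the share of all genes at that threshold was not computed. Every OMT array lay below every YMT array for 13 members, beside 8.51% of all genes, and every OMT array lay above for none, beside 9.64% of all genes.

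In intestine fewer members passed the test. Sdha and Ndufa9 fell and none rose, so 2.70% of the 74 members tested were called lower, near the 3.10% of all 13238 genes that were, and 1.04% of all genes rose. The difference was negative for 54 of 74 members, with a median of -0.12, beside a median of -0.02 and 54.8% negative over all genes. At an unadjusted p under 0.05, 27 members were lower and 2 higher, and the share of all genes at that threshold was not computed. Every OMT array lay below every YMT array for 11 members, beside 6.84% of all genes, and above for 1, Ndufa6, beside 2.80% of all genes.

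**Figure D1:**
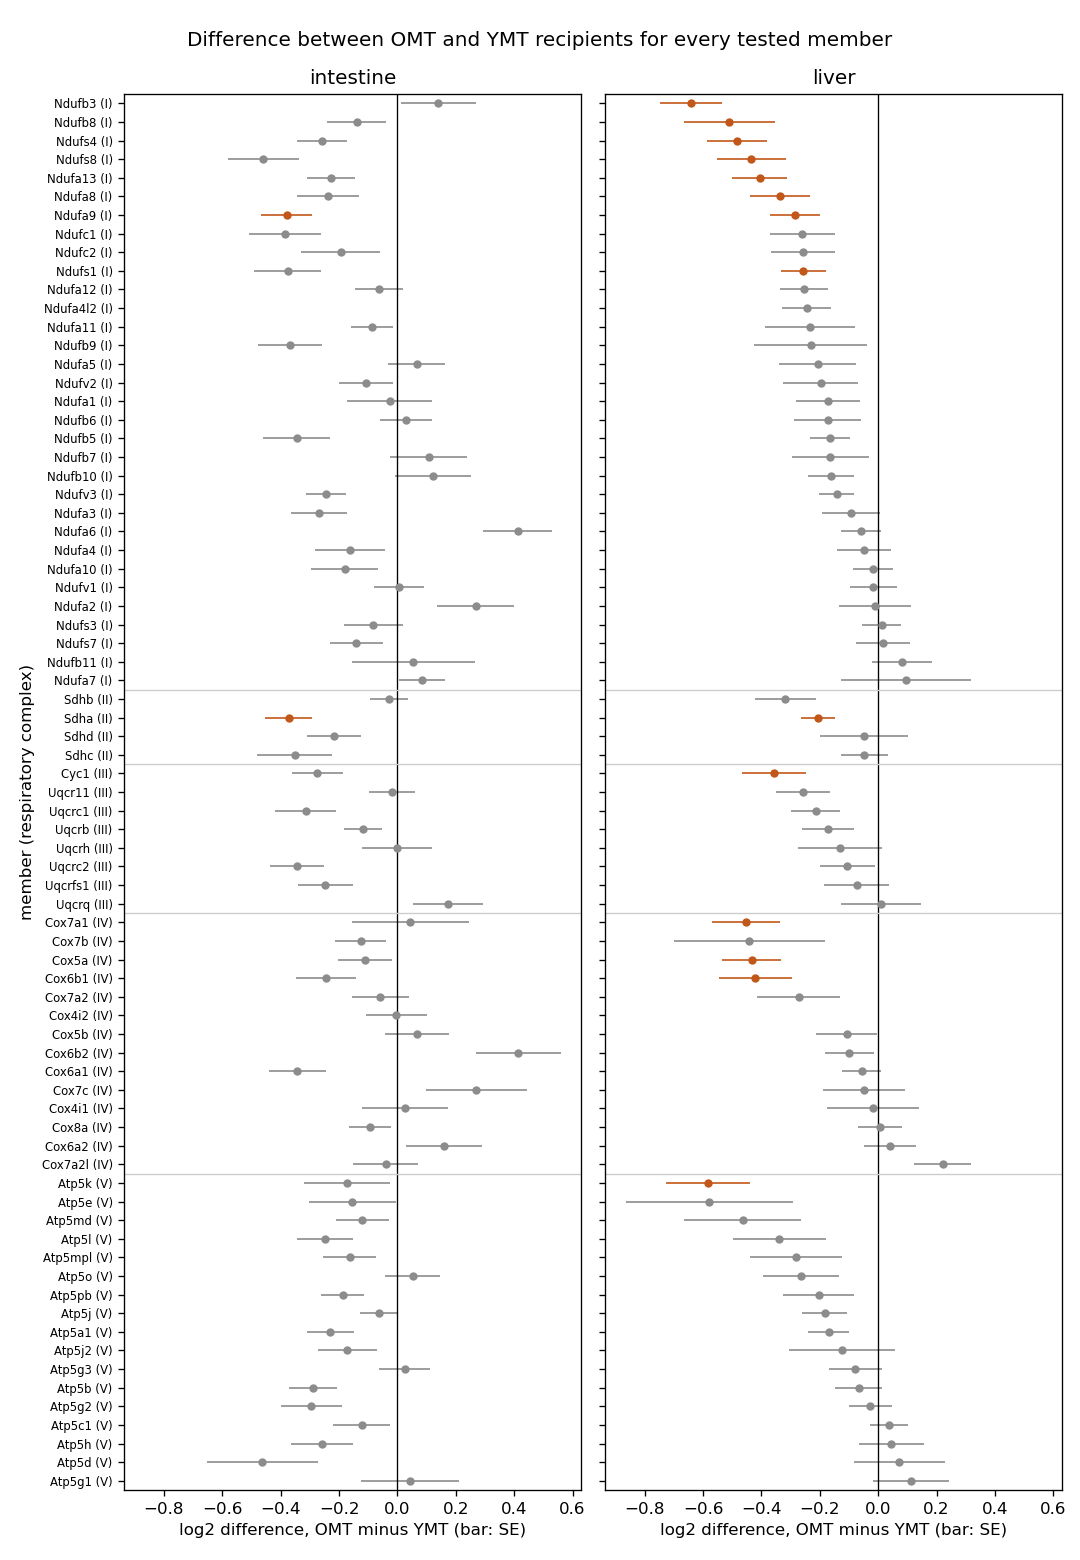
Difference in log2 level, OMT minus YMT, for every member tested in intestine (left) and liver (right), grouped by respiratory complex. Points are the differences, bars are 1 SE, and orange marks the 2 members in intestine and the 14 in liver with an adjusted p under 0.05, all of them to the left of 0.

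Not every member could be tested. In each tissue 7 stayed below the level filter. Atp5c1-ps, Uqcrh-ps1, Cox7b2, Cox8b, Cox8c and Ndufs5 were untested in both, Ndufa4l2 in intestine and Cox4i2 in liver. Ndufs5, a membrane-arm subunit of complex I, is widely expressed, yet its probe set read only 3.37 in OMT and 2.85 in YMT livers on average, under the array medians of 4.12 to 4.22, with every OMT array above every YMT array.

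Complex I held 8 of the 14 calls in liver and 1 of the 2 in intestine. In liver 8 of 32 tested members fell (25.0%, beside 8.78% of all genes), none rose and 28 were negative, with a median of -0.18. In intestine 1 of 31 fell (3.23%, beside 3.10% of all genes), 21 were negative, and the median was -0.14. The complex is an L of 3 modules, and calls in liver came from each: 2 of 9 in the NADH dehydrogenase module, 2 of 5 in the ubiquinone-binding module and 4 of 16 in the membrane arm. Ndufa4 and Ndufa4l2, counted by symbol only, were placed in none of the 3, and neither of these 2 passed in liver.

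The lowest adjusted p among the members was that of Ndufb3, a small accessory subunit of the membrane arm. In liver it read 6.00, 5.67, 5.97, 6.07 and 5.69 on the OMT arrays, against 6.56, 6.33, 6.53 and 6.66 on the YMT arrays. Every OMT liver lay below every YMT liver, and the difference of -0.64 ± 0.11 was a 1.56-fold lower level (adjusted p = 0.0021). In intestine the OMT arrays read 7.0, 6.60, 6.94, 6.78 and 6.57, against 6.67, 6.61, 6.91 and 6.36 on the YMT arrays. There the groups overlapped and the difference was 0.14 ± 0.13 (adjusted p = 0.54).

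Ndufs4, an accessory subunit of the NADH dehydrogenase module whose loss causes a fatal brain disease in mice, followed. Its liver levels were 7.08, 7.06, 7.48, 7.48 and 7.23 in OMT recipients, against 7.68, 7.79, 7.75 and 7.78 in YMT recipients. All OMT livers were below all YMT livers, replicates 1 and 2 furthest, and the difference was -0.48 ± 0.10 (adjusted p = 0.0079). In intestine its difference was -0.26 ± 0.08 (adjusted p = 0.11). Ndufs1, the iron-sulphur protein of the same module, fell by 0.26 in liver (adjusted p = 0.042) and had a difference of -0.38 ± 0.11 in intestine, where it did not pass (adjusted p = 0.088) although every OMT array was below every YMT array.

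Ndufa13, Ndufa8 and Ndufb8, also of the membrane arm, fell in liver. Ndufa13 read 8.02, 7.87, 8.08, 8.32 and 8.03 in OMT livers, against 8.54, 8.37, 8.40 and 8.57 in YMT livers. Again no OMT liver reached a YMT liver, with a difference of -0.41 ± 0.09 (adjusted p = 0.012). Ndufa8 differed by -0.34 ± 0.10 and Ndufb8 by -0.51 ± 0.16 (adjusted p = 0.044 for each). For Ndufb8 the groups overlapped, since OMT replicate 4 read 6.37 within a YMT range of 6.22 to 6.58, while the other OMT livers read 5.59 to 6.09.

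In the ubiquinone-binding module, Ndufs8, which carries 2 iron-sulphur clusters, read 8.13, 8.07, 8.53, 8.62 and 8.18 in OMT livers, against 8.72, 8.82, 8.78 and 8.64 in YMT livers. The groups did not overlap, though replicate 4 came close, and the difference was -0.43 ± 0.12 (adjusted p = 0.028). In intestine the difference of the same gene was -0.46 ± 0.12, the largest of complex I there, without passing (adjusted p = 0.060).

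Complex II had 4 members, all negative in both tissues, beside 54.8% of all genes in intestine and 51.0% in liver. The median difference was -0.29 in intestine and -0.13 in liver, and in each tissue Sdha, the flavoprotein that oxidises succinate, was the single gene that fell. That is 25% of the members, beside 3.10% of all genes in intestine and 8.78% in liver, but among 4 members 1 call says little. Sdhb, the iron-sulphur subunit, had a difference of -0.03 ± 0.06 in intestine (adjusted p = 0.82) and -0.32 ± 0.11 in liver (adjusted p = 0.058). The membrane anchors had their larger differences in intestine: Sdhc differed by -0.35 ± 0.13 in intestine (adjusted p = 0.14) and -0.05 ± 0.08 in liver (adjusted p = 0.73), and Sdhd by -0.22 ± 0.09 (adjusted p = 0.20) and -0.05 ± 0.15 (adjusted p = 0.86). For none of Sdhb, Sdhc and Sdhd did the difference between the tissues pass the test.

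In complex III, 1 of 8 tested members fell in liver (12.5%, beside 8.78% of all genes) and none in intestine. In each tissue 7 were negative, with medians of -0.15 in liver and -0.18 in intestine. Cyc1, cytochrome c1, read 7.88, 7.92, 8.31, 8.38 and 8.03 in OMT livers, against 8.46, 8.42, 8.54 and 8.42 in YMT livers. Replicates 3 and 4 lay just under the YMT arrays and the other 3 OMT livers further below, for a difference of -0.36 ± 0.11 (adjusted p = 0.045). In intestine the largest difference of the complex was that of the core protein gene Uqcrc2, at -0.34 ± 0.09 (adjusted p = 0.065), with every OMT array below every YMT array.

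In complex IV, 3 of 13 tested members fell in liver (23.1%, beside 8.78% of all genes) and none of 14 in intestine. The medians were -0.10 in liver and -0.02 in intestine, where 8 members were negative and 6 positive, the most even split of the 5 complexes. Among the widely expressed forms, Cox5a read 8.73, 8.79, 9.15, 9.15 and 8.80 in OMT livers, against 9.31, 9.41, 9.35 and 9.36 in YMT livers. The OMT livers lay below all YMT livers and in 2 sets, replicates 1, 2 and 5 under 8.81 and replicates 3 and 4 at 9.15, with a difference of -0.43 ± 0.10 (adjusted p = 0.014). Cox6b1, which faces the intermembrane space, fell by 0.42 (adjusted p = 0.038), with OMT replicate 4 at 8.70 inside the YMT range of 8.69 to 8.82. Cox6a1 had the largest negative difference of the complex in intestine, -0.34 ± 0.10 (adjusted p = 0.074).

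In complex V, 1 of 17 tested members fell in liver (5.88%, under the 8.78% of all genes) and none in intestine, with medians of -0.17 in both. The call was Atp5k, the e subunit of the membrane part, at 7.59, 7.75, 8.15, 8.32 and 7.92 in OMT livers, against 8.30, 8.66, 8.54 and 8.62 in YMT livers. Replicate 4 overlapped the lowest YMT liver, and the difference was -0.58 ± 0.14, a 1.5-fold lower level (adjusted p = 0.017). All 5 membrane accessory subunits (Atp5k, Atp5l, Atp5j2, Atp5md and Atp5mpl) were negative in both tissues, with medians of -0.34 in liver and -0.17 in intestine. The 5 subunits of the catalytic head and central stalk were all negative in intestine (median -0.23), where the beta subunit Atp5b differed by -0.29 ± 0.08 (adjusted p = 0.074), but 3 of 5 in liver (median -0.07). Atp5e, the epsilon subunit, had a liver difference as large as that of Atp5k, -0.58, with an SE of 0.29 and no call (adjusted p = 0.19).

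**Figure D2:**
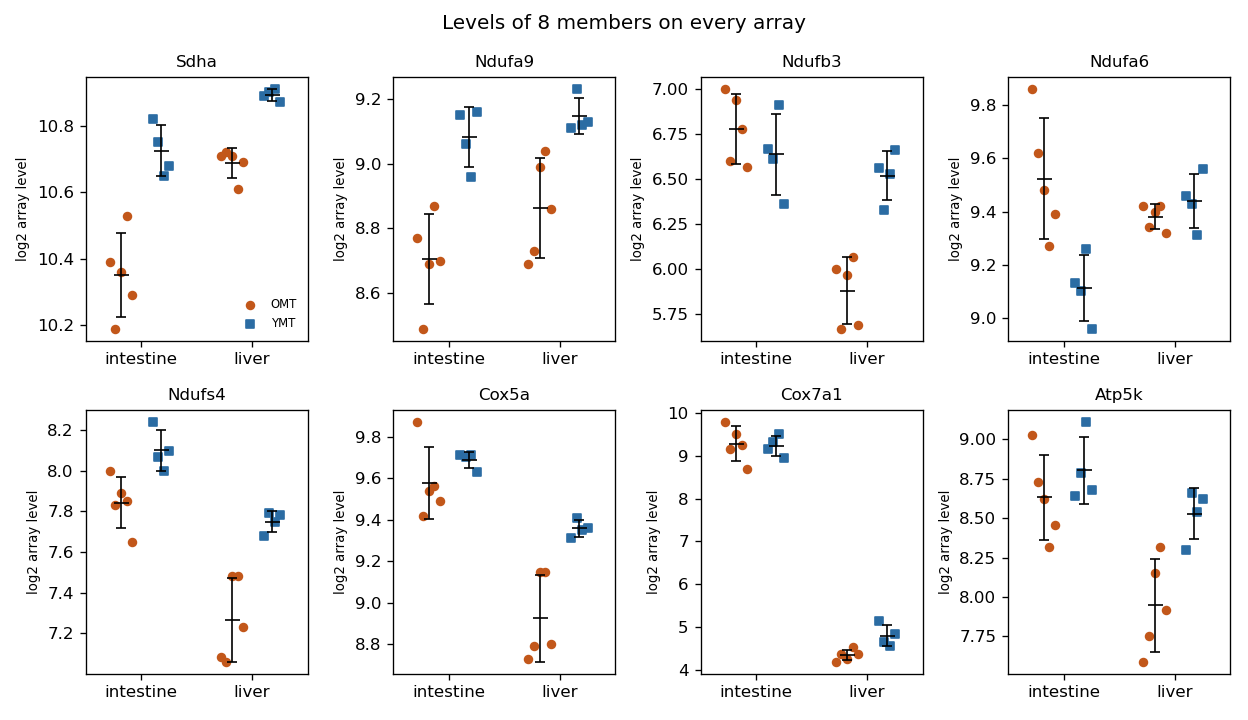
Log2 array levels of 8 members on every array, with OMT (orange circles) left of YMT (blue squares) in each tissue. Long bars are means and whiskers 1 SD. Sdha and Ndufa9 lie lower on every OMT array in both tissues, Ndufb3 on every OMT liver, and Ndufa6 lies higher on every OMT intestine.

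Forms of limited tissue distribution were read separately. Cox7a1, the heart and skeletal muscle form of the subunit for which Cox7a2 is the widespread form, read 4.19, 4.37, 4.26, 4.52 and 4.37 in OMT livers, against 5.13, 4.65, 4.56 and 4.84 in YMT livers. Every OMT liver was below every YMT liver, close to the array medians of 4.12 to 4.22, and the difference was -0.45 ± 0.12 (adjusted p = 0.021). The 7 striated muscle markers averaged 4.45 ± 0.07 in OMT and 4.5 ± 0.03 in YMT livers, and none of the 4 tested passed. Smooth muscle markers averaged 4.85 ± 0.08 in OMT and 5.10 ± 0.15 in YMT livers. Endothelial markers averaged 6.72 ± 0.11 and 7.18 ± 0.12, and both of these lists were lower on every OMT liver. The part of these cells in the Cox7a1 difference was not tested. In intestine Cox7a1 averaged 9.28 ± 0.41 in OMT and 9.24 ± 0.23 in YMT recipients. Of the other restricted forms, Cox6a2 (heart and skeletal muscle) and Cox4i2 and Ndufa4l2 (both known for induction at low oxygen) passed in no tissue where they were tested, and Cox8b was untested, at 2.91 to 3.65 on the OMT and YMT arrays of both tissues. Cox6b2, known from testis, had an intestinal difference of 0.41 ± 0.14 (adjusted p = 0.13).

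The 3 c-ring genes Atp5g1, Atp5g2 and Atp5g3 encode the same mature protein behind different import sequences. In intestine Atp5g2 had a difference of -0.29 ± 0.11 (adjusted p = 0.14), while Atp5g1 and Atp5g3 had 0.04 ± 0.17 and 0.02 ± 0.09. In liver the differences of Atp5g1, Atp5g2 and Atp5g3 were 0.11, -0.03 and -0.08, with adjusted p-values of 0.60, 0.84 and 0.60. None of the 3 passed in either tissue.

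For 9 members a second probe set was present. The 2 probe sets of Ndufa8 both read lower in OMT livers, by -0.34 and -0.38, and those of Atp5d both read lower in OMT intestines, by -0.46 and -0.39. Those of Atp5e disagreed in size in liver, at -0.58 for the brighter and -0.10 for the dimmer one, and in sign in intestine, at -0.15 and 0.10. Those of Ndufa11 had opposite signs in both tissues, at -0.09 for the brighter and 0.18 for the dimmer one in intestine, and -0.23 and 0.02 in liver. Those of Cox5b had opposite signs in liver, at -0.11 for the brighter and 0.0045 for the dimmer one. Many subunit genes have processed pseudogenes, so a probe set may also read a near-identical copy.

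Sdha and Ndufa9 were the members that fell in both tissues, 2 of 73 tested in both. The share of all genes that fell in both was not computed, so this count has no background. Sdha (probe set 17294377) read 10.39, 10.19, 10.36, 10.53 and 10.29 in OMT intestines, against 10.82, 10.75, 10.65 and 10.68 in YMT intestines. In liver it read 10.71, 10.72, 10.71, 10.61 and 10.69 in OMT recipients, against 10.89, 10.90, 10.91 and 10.87 in YMT recipients. The groups were apart in both tissues, by -0.37 ± 0.08 in intestine (adjusted p = 0.033) and by -0.20 ± 0.06 in liver (adjusted p = 0.032), where the spread within each group was narrow. Liver OMT replicates 1 and 2, low for most members, were below every YMT liver for Sdha too, but not lower than the other OMT livers.

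Ndufa9 (probe set 17471166), an accessory subunit of complex I next to the ubiquinone site, read 8.77, 8.49, 8.69, 8.87 and 8.70 in OMT intestines, against 9.15, 9.06, 8.96 and 9.16 in YMT intestines. In liver it read 8.69, 8.73, 8.99, 9.04 and 8.86 in OMT recipients, against 9.11, 9.23, 9.12 and 9.13 in YMT recipients. Again no OMT array reached a YMT array in either tissue, and the differences were -0.38 ± 0.09 in intestine (adjusted p = 0.041) and -0.29 ± 0.09 in liver (adjusted p = 0.040). Leaving out 1 array at a time moved the intestinal difference of Sdha only between -0.33 and -0.42, and that of Ndufa9 between -0.33 and -0.42, but the adjusted p stayed under 0.05 only without OMT replicate 4 for Sdha, and without OMT replicate 4 or YMT replicate 3 for Ndufa9, and reached 0.11 for Ndufa9 and 0.10 for Sdha. The liver calls were as unsteady: the adjusted p stayed under 0.05 only without OMT replicate 2 or 3 for Sdha, and without OMT replicate 3 or 4 for Ndufa9, and reached 0.073 for Sdha and 0.11 for Ndufa9. Over the 73 members tested in both tissues, 46 were negative in both, 7 in intestine only, 15 in liver only and 5 in neither. The matching shares of all genes were not computed.

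The windows around the annotated starts of these 2 genes are shown because they were lower in both tissues. They are RefSeq sequences of build GRCm38.p6, 250 bases before to 50 after the start, read 5′ to 3′ along the gene: Sdha at chr13:74350191-74350490 and Ndufa9 at chr6:126849095-126849394, both on the minus strand. Capitals mark matches to the motif of nuclear respiratory factor 1 (NRF1), which is GCGCA, any base and GCGC, in Sdha and to that of YY1, AAGATGG, in Ndufa9, on either strand.
Sdha: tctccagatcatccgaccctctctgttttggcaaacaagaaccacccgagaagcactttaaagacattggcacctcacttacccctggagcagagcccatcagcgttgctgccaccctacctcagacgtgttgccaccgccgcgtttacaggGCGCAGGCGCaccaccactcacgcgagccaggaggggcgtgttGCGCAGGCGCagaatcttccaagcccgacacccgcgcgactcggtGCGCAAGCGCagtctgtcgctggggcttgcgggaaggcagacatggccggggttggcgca
Ndufa9: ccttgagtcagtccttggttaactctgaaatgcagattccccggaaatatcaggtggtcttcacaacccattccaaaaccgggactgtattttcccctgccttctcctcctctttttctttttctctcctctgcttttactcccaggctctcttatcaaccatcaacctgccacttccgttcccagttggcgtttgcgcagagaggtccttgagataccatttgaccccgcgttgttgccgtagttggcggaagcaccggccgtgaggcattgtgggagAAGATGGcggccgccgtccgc
Sdha holds the NRF1 motif 3 times, and Ndufa9 holds the YY1 motif once, 29 bases after the start. NRF1 and YY1 are transcription factors known to bind promoters of many respiratory chain genes, and a match of letters is not a site of binding.

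The difference between donors was unequal in the tissues for 2 members, Ndufb3 and Ndufa6, 2 of 73 tested, beside 11.9% of all 11965 genes tested (7.91% with the intestinal difference the lower, 4.04% with it the higher). For Ndufb3 the intestinal difference exceeded the liver one by 0.78 ± 0.17 (adjusted p = 0.0064), and the call held with any 1 of the 18 arrays left out. Ndufa6 (probe set 17319619), an accessory subunit that holds an acyl carrier protein on the NADH dehydrogenase module, read 9.86, 9.62, 9.48, 9.27 and 9.39 in OMT intestines, against 9.13, 9.10, 9.26 and 8.96 in YMT intestines. Every OMT intestine was above every YMT intestine, replicate 4 by the least, with a difference of 0.41 ± 0.12 that did not pass on its own (adjusted p = 0.076). In liver Ndufa6 averaged 9.38 ± 0.05 in OMT and 9.44 ± 0.10 in YMT recipients. The difference between the tissues was 0.47 ± 0.14 for Ndufa6 (adjusted p = 0.033), and its call was lost with any of 9 arrays left out: intestine OMT 2, intestine YMT 1, 2 and 4, liver OMT 2 and 5, and liver YMT 1, 2 and 4, with values of 0.42 to 0.48 and adjusted p up to 0.078.

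The start windows of these 2 genes are shown for contrast with those of Sdha and Ndufa9, from the same RefSeq build: Ndufb3 at chr1:58586147-58586446 on the plus strand and Ndufa6 at chr15:82354242-82354541 on the minus strand. Capitals again mark the NRF1 motif.
Ndufb3: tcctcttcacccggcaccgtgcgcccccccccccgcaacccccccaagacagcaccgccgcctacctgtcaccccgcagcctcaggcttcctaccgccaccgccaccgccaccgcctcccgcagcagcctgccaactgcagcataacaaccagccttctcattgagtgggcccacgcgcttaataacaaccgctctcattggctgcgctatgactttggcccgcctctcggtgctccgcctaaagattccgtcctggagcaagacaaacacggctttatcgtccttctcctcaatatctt
Ndufa6: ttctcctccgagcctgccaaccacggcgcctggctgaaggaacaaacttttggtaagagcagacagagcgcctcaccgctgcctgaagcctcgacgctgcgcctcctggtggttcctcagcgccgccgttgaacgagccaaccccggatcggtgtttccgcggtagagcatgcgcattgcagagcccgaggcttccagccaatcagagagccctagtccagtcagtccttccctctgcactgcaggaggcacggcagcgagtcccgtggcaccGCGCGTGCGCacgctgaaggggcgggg
Ndufa6 holds 1 match, in the reverse direction, 23 bases after the start, and none of the 4 motifs searched stood in this window of Ndufb3.

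A start window was found for 64 of the 81 members. The NRF1 motif stood in 15 of them (23.4%), beside 7.17% of 17492 protein-coding genes with a window. The motif of ETS factors, CCGGAAG, stood in 17 (26.6%, beside 12.9%), the YY1 motif AAGATGG in 10 (15.6%, beside 7.18%) and the motif of the estrogen-related receptors, TCAAGGTCA, in 2 (3.13%, beside 0.377%). Both strands were searched, none of the 4 motifs contains another, and those of ETS and YY1 can share their letters AAG where they adjoin. Of the 14 members that fell in liver, 12 had a window, and 3 of the 12 held the NRF1 motif, 3 the ETS motif, 3 the YY1 motif and none the receptor motif. The other 52 members with a window held them in 12, 14, 7 and 2 cases.

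The mean level of the subunits differed among the OMT livers. Averaged over the 74 tested members, the OMT livers read 7.72, 7.73, 8.01, 8.15 and 7.87, against 8.05, 8.10, 8.05 and 8.10 in YMT livers. Replicates 1, 2 and 5 lay below all YMT livers, replicate 3 just below, and replicate 4 above. Members below every YMT liver numbered 60, 65, 29, 16 and 50 on the 5 OMT livers, that is 81.1%, 87.8%, 39.2%, 21.6% and 67.6% of 74, beside 24.0% to 29.9% of all genes tested. On replicate 4, 30 members (40.5%) lay above every YMT liver, beside 27.2% of all genes.

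The same arrays were low within each complex. The mean of complex I was 7.50, 7.50, 7.77, 7.92 and 7.65 in OMT livers, against 7.85 to 7.89 in YMT livers, and that of complex V was 7.85, 7.91, 8.17, 8.37 and 8.06, against 8.22 to 8.30. In each of the 5 complexes replicates 1 and 2 were the 2 lowest OMT livers and replicates 3 and 4 the 2 highest. This order was not particular to the subunits. The 20 tested genes of protein import averaged 7.27, 7.28, 7.50, 7.64 and 7.40 in OMT livers, against 7.36 to 7.40 in YMT livers. The 69 tested mitochondrial ribosomal proteins averaged 6.52, 6.57, 6.71, 6.81 and 6.64, against 6.67 to 6.70. The 10 subunits of mitochondrial DNA had another order, with replicate 3 lowest at 12.41. Without OMT replicates 1 and 2, which are the lowest arrays so that their removal must raise the OMT mean, the liver median went to -0.06 over the 74 members, and 2 members stayed called: Ndufb3 at -0.61 (adjusted p = 0.0078) and Ndufs4 at -0.35 (adjusted p = 0.025). Leaving out 1 array at a time gave between 5 members called, without YMT replicate 2, and 22, without OMT replicate 4. The count was 6 without OMT replicate 1, 7 without OMT replicate 2, 6 without OMT replicate 5, 6 without YMT replicate 1, 8 without YMT replicate 3 and 6 without YMT replicate 4. Ndufb3, Ndufs4, Ndufa13 and Cox5a stayed called each time, and Atp5k and Cox7a1 each time but once.

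In intestine the mean over the 74 members was 8.39, 8.13, 8.26, 8.27 and 8.13 in OMT recipients, against 8.37, 8.35, 8.34 and 8.33 in YMT recipients. Replicate 1 was just above the YMT arrays and the other 4 were below them. On replicate 1, 30 members (40.5%) lay above every YMT intestine, beside 25.0% of all genes, and 24 (32.4%) lay below, beside 37.9%. On replicates 2 to 5, 49, 39, 35 and 57 members lay below every YMT intestine. These were 66.2%, 52.7%, 47.3% and 77.0% of 74, beside 23.1% to 35.6% of all genes. Complexes II and V were apart between the groups even so. Complex II averaged 9.28, 9.09, 9.34, 9.44 and 9.24 in OMT intestines, against 9.57, 9.56, 9.45 and 9.51 in YMT intestines, and complex V averaged 8.53, 8.32, 8.43, 8.48 and 8.27, against 8.59, 8.59, 8.56 and 8.56. Complex IV averaged 8.27 ± 0.10 in OMT and 8.27 ± 0.04 in YMT intestines (SD, n = 5 and 4).

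**Figure D3:**
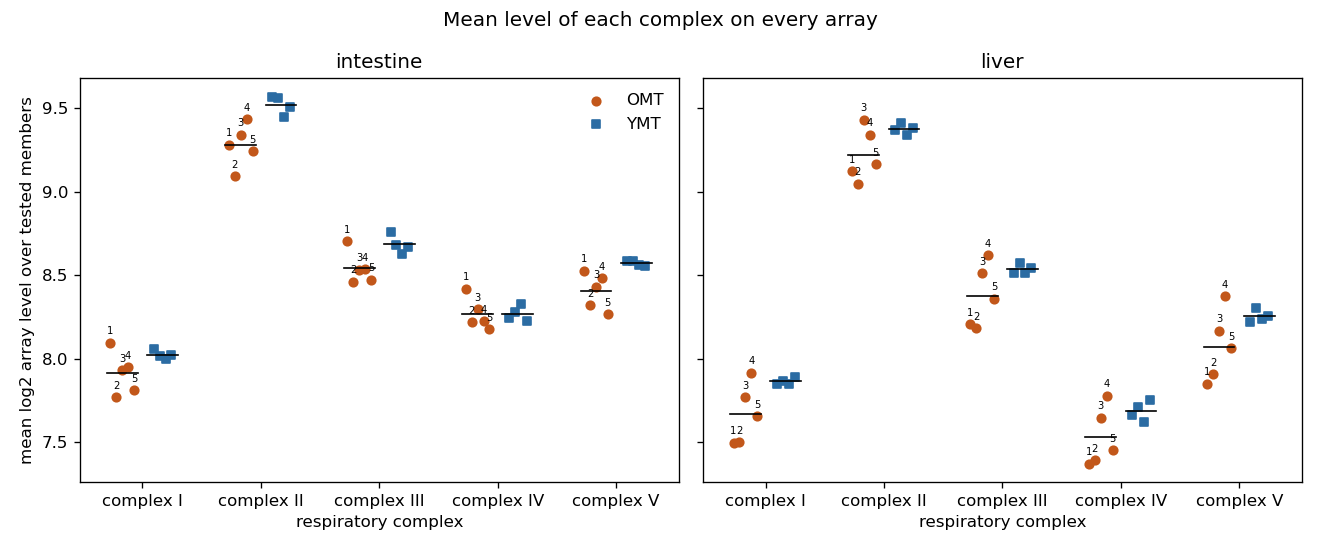
Mean log2 array level over the tested members of each respiratory complex on every array, OMT (orange circles, numbered by replicate) left of YMT (blue squares). Horizontal bars are group means. In liver OMT replicates 1 and 2 lie lowest and replicates 3 and 4 highest, and in intestine all OMT arrays lie below all YMT arrays for complexes II and V.

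The OMT recipients also varied more among themselves. The SD was larger in OMT than in YMT recipients for 63 of 74 members in liver (85.1%, beside 55.6% of all genes) and for 66 of 74 in intestine (89.2%, beside 60.7%). The median SD over members was 0.19 in OMT and 0.09 in YMT livers, and 0.18 in OMT and 0.08 in YMT intestines. These are descriptions of 5 and 4 arrays.

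**Figure D4:**
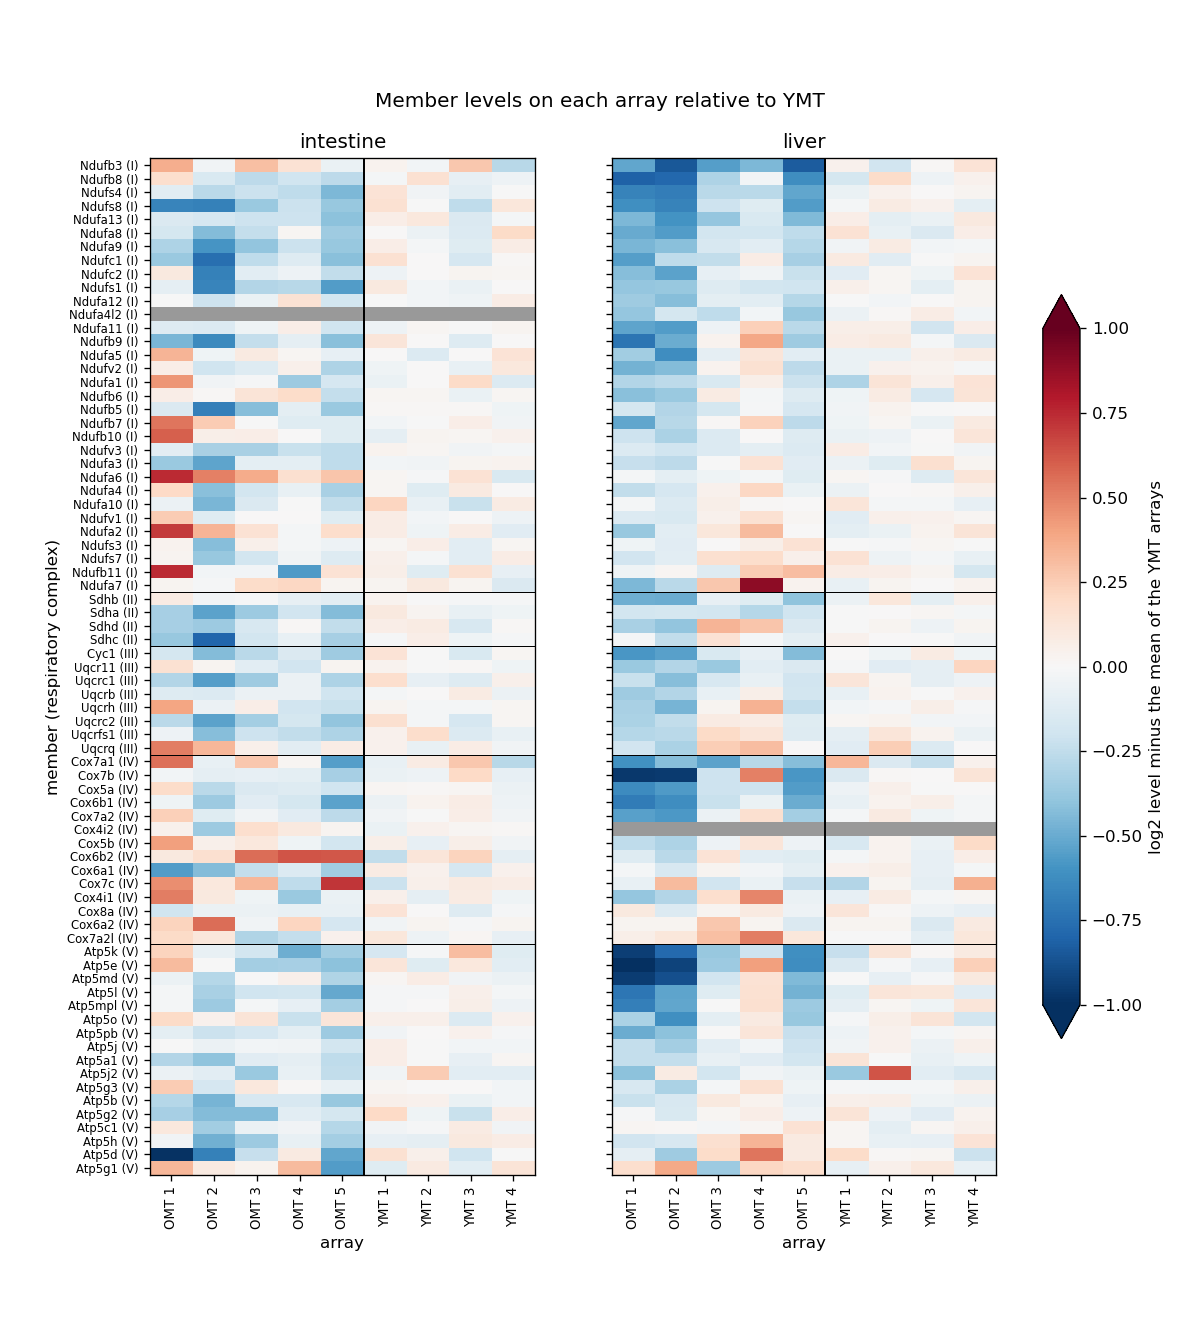
Log2 level of each tested member on each array minus the mean of the YMT arrays of that tissue, with OMT arrays left of YMT arrays and members grouped by complex and ordered by their liver difference. Blue is lower and red higher, grey rows were not tested in that tissue. In liver the blue columns are OMT replicates 1, 2 and 5, and the rows that are blue across all 5 OMT livers include Ndufb3, Ndufs4, Ndufa13 and Sdha.

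The subunits encoded in mitochondrial DNA were measured too, and none of 10 passed in either tissue. Their differences ran from -0.26 to -0.02 in liver, with a median of -0.05, and from -0.12 to 0.43 in intestine, with a median of 0.00. At an unadjusted p under 0.05 none of them passed in liver. All 10 were negative in liver and 4 in intestine.

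Some electron carriers around the complexes fell in liver. Cycs, cytochrome c itself, read 9.91, 9.84, 10.14, 10.18 and 10.05 in OMT livers, against 10.51, 10.25, 10.27 and 10.53 in YMT livers. Every OMT liver was below every YMT liver, by -0.37 ± 0.10 (adjusted p = 0.023), and in intestine the groups overlapped. Of 17 tested genes for electron carriers and coenzyme Q, 3 fell in liver (17.6%, beside 8.78% of all genes) and none rose: Cycs, Coq10a (-0.33, adjusted p = 0.016) and Coq8a, needed for coenzyme Q synthesis (-0.97 ± 0.16, adjusted p = 0.0021). None passed in intestine.

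Genes that feed the chain and export its ATP had calls in 1 direction in liver. Of 17 genes of pyruvate dehydrogenase and the citric acid cycle, 5 fell (29.4%, beside 8.78% of all genes) and none rose. The 5 were the pyruvate dehydrogenase genes Dlat (-0.73), Pdhb (-0.63), Pdha1 (-0.40) and Pdhx (-0.28), and citrate synthase, Cs (-0.60). Their adjusted p-values were, in that order, 0.0019, 0.0019, 0.011, 0.014 and 0.012. Over the 17 the liver median was -0.05, with 11 negative and 6 positive. None passed in intestine, where the median was -0.16. Slc25a4, the heart and muscle form of the ADP/ATP carrier, read 4.73, 5.04, 5.63, 5.04 and 5.09 in OMT intestines, against 7.70, 6.76, 6.46 and 6.96 in YMT intestines. All OMT intestines were below all YMT intestines, by -1.86 ± 0.24 (adjusted p = 0.0051), while the 7 smooth muscle markers averaged 5.64 ± 0.32 in OMT and 5.63 ± 0.21 in YMT intestines. In liver Slc25a4 fell by 0.51 and Atpif1, the inhibitor of the ATP synthase, by 0.52 (adjusted p = 0.0094 and 0.0073). These were 2 of 9 tested genes for ATP export and uncoupling (22.2%, beside 8.78% of all genes). The smooth muscle markers averaged 4.85 ± 0.08 in OMT and 5.10 ± 0.15 in YMT livers, lower on every OMT liver, and their part in this was not tested.

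Of 20 tested regulators of mitochondrial gene expression, 2 fell (10%) and 3 rose (15%) in liver, near the 8.78% and 10.4% of all genes. Ppargc1a, a coactivator known to raise transcription of respiratory chain genes, read 5.42, 5.81, 5.47, 5.39 and 5.55 in OMT livers, against 6.52, 6.19, 6.07 and 6.26 in YMT livers. The groups did not overlap, and the difference was -0.73 ± 0.11 (adjusted p = 0.0013). Its relative Ppargc1b fell by 0.52 (adjusted p = 0.0078). Twnk, the helicase of mitochondrial DNA, read 7.13, 6.86, 7.15, 7.03 and 7.33 in OMT livers, against 6.06, 6.09, 6.16 and 6.03 in YMT livers, and Tfb1m, an rRNA methyltransferase of mitochondria, 7.35, 7.49, 7.58, 7.48 and 7.58, against 6.67, 6.67, 6.41 and 6.48. Both were higher in every OMT liver, by 1.01 ± 0.09 and 0.94 ± 0.08, and Gabpb2, a partner of an ETS factor, rose by 0.46. Esrra, Nrf1, Gabpa and Tfam had liver differences of 0.12, 0.14, 0.13 and 0.07 and did not pass. None of the 20 passed in intestine, where Ppargc1a had a difference of -0.66 ± 0.19 (adjusted p = 0.076).

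**Figure D5:**
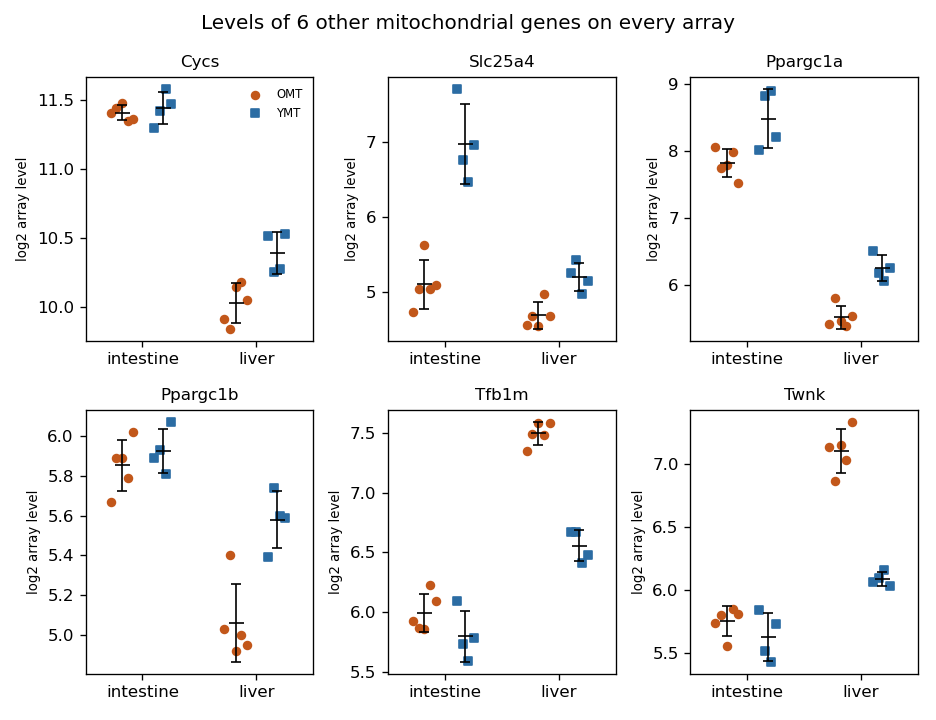
Log2 array levels of 6 mitochondrial genes outside the 81 subunits on every array, OMT (orange circles) left of YMT (blue squares) in each tissue, with means and 1 SD. Ppargc1a and Cycs are lower and Twnk and Tfb1m higher on every OMT liver, and Slc25a4 is lower on every OMT intestine.

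Genes that assemble and house the complexes had calls in both directions in liver. Among 18 complex I assembly factors, 3 fell (16.7%, beside 8.78% of all genes; Ndufaf6, -0.38; Ndufaf5, -0.42; Acad9, -0.31) and 3 rose (16.7%, beside 10.4%; Foxred1, 0.57; Tmem186, 0.52; Ndufaf4, 0.33), while 1, Dmac2, fell in intestine (-0.41). Of the assembly factors of complexes II to V, 1 of 30 (3.33%), Atpaf2, fell in liver and none of 29 passed in intestine. Protein import had 2 of 20 higher in liver (10%; Tomm40 and Hspd1, 0.31 each). The genes of fusion, fission and cristae had 1 of 15 lower (6.67%; Apool, -0.49) and 2 higher (13.3%; Chchd6, 0.55; Immt, 0.24). None passed in intestine for either list. Among 69 mitochondrial ribosomal proteins, 4 fell (5.80%) and 2 rose (2.90%) in liver, under the 8.78% and 10.4% of all genes. Of the 4, Mrps18a had the smallest adjusted p (-0.42, adjusted p = 0.0015). In intestine 1 rose (1.45%, beside 1.04% of all genes), Mrpl15 (0.36, adjusted p = 0.032). The liver medians of these 5 lists lay between -0.06 and 0.03, beside -0.17 for the subunits.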

How the data were processed

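Expression was measured in 5 OMT and 4 YMT small intestines and as many livers, 18 arrays in all, labelled from 250 ng of total RNA. Per the submitters' processing notes, the deposited log2 values come from RMA as run by the authors in Expression Console (Affymetrix), whose version is not given in the sources used here. That method equalizes the arrays' quantiles and compresses differences of dim probe sets. Base 2 was inferred for the logarithm because the values span what such arrays give, and whether the tissues were normalized together is not stated, so levels were compared within a tissue.

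The table holds 41345 probe sets, of which 1814 have several symbols and 16010 none in the platform annotation. All 81 member identifiers were found in a RefSeq table of GRCm38.p6. The members and gene lists were chosen with earlier results of these data known. Groups and replicate numbers came from the titles, where each sample is called a biological replicate. No 2 arrays were identical. Each tissue was fitted in limma 3.58.1 (lmFit and eBayes, R 4.3.3), two-sided, on genes above the array median on at least 4 of 9 arrays, with the probe set of highest mean per gene. The difference between tissues was fitted over 4 groups on 18 arrays taken as independent, for genes passing in both. The limma fits were tested on simulated arrays. Added log2 changes of 0.5 were recovered for 49.3% of changed genes in intestine, 62.7% in liver and 34.3% for the difference between tissues. Changes of 1 were recovered for 94.0%, 98.5% and 85.1%. Members named are those past the threshold, the 2 of smallest p per complex and tissue, all Sdh genes, the isoform genes and the subunit c genes; from each other list, up to 4 past the threshold per tissue and 6 fixed regulators. Others that are named were picked after their values were seen. Promoter windows were searched with Python 3.11.15 and figures drawn with matplotlib 3.10.9.

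Alternatives were no filter, a filter at the 75th percentile, trend and robust eBayes, all 18 arrays in 1 fit, array weights, quantile normalization, median centring, the mean over probe sets, the probe set brightest over both tissues, a replicate block, leaving out each array or OMT replicates 1 and 2 together, and a threshold of 0.10.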

Additional observations from a re-analysis of the deposited data

Results flagged for a closer look

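Ndufb3 and Ndufa6 had donor differences (OMT minus YMT) that differed from tissue to tissue by the test of that contrast, at 0.7805 and 0.4715 (intestine minus liver, log2).

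Among 148 groups of 4 or 5 arrays examined for a value far from the rest, 12 held one (8.11%), where chance gives about 1 in 20 for independent groups. In OMT groups these were Atp5g1 in liver, where replicate 3 read 4.78 and the others 5.31 to 5.52; Cox4i2 in intestine, replicate 2 at 4.10 and the others 4.49 to 4.63; and Cox8b in intestine, replicate 3 at 3.39 and the others 3.28 to 3.30. Ndufa13 in intestine had replicate 5 at 7.74 and the others at 7.94 to 8.00, Ndufb8 in intestine replicate 1 at 7.03 and the others at 6.60 to 6.71, and Sdha in liver replicate 4 at 10.61 and the others at 10.69 to 10.72. In YMT groups, Atp5g3 in liver had replicate 4 at 8.77 beside 8.70 to 8.71, Cox5a in intestine replicate 4 at 9.63 beside 9.70 to 9.71, and Cox6a1 in intestine replicate 3 at 12.04 beside 12.25 to 12.29. Cox8b had YMT replicate 1 at 3.25 beside 3.28 in intestine and at 3.26 beside 3.15 in liver, and Ndufa9 in liver had replicate 2 at 9.23 beside 9.11 to 9.13. The groups share arrays, and Cox8b was untested, dim and close to tied values. No excess over chance is therefore read from the share of groups flagged.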

How the results depend on the processing

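With 5 and 4 arrays per tissue the counts near the threshold were unsteady, while the signs of the 16 calls (14 in liver, 2 in intestine) and of the 10 medians by complex and tissue were kept in the 20 alternative fits per tissue. Of these medians that of complex IV in intestine came nearest to 0, at -0.11 to -0.004. Members lower in intestine, 2 as reported, numbered 0 with no filter, 5 with the filter at the 75th percentile, 13 with all 18 arrays in the fit, 9 with array weights, 0 with the replicate block, 0 without OMT replicates 1 and 2, 10 at a threshold of 0.10, and 0 to 5 with each array left out. Members higher in intestine, 0 as reported by limma with 2 at an unadjusted p under 0.05, numbered 2 with all 18 arrays, 1 with array weights, 1 without OMT replicates 1 and 2, 1 at a threshold of 0.10, and 0 to 1 with each array left out. Members lower in liver, 14 as reported, numbered 7 with no filter, 4 with the replicate block, 2 without OMT replicates 1 and 2, and 5 to 22 with each array left out; members higher in liver numbered 1 with no filter and 0 otherwise. Members unequal in the tissues, 2 as reported, numbered 1 with no filter, 1 with the replicate block, and 1 to 3 with each array left out. Ndufb3 and Ndufs4 in liver stayed past the threshold in all 20 alternative fits. The cause of these changes was not tested, beyond fewer arrays or more genes tested where the alternative is built so.

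The labels do not say whether arrays of 1 replicate number are paired, such as intestine and liver of 1 animal. Deviations of OMT and YMT arrays of 1 number correlated at -0.06, 0.08, 0.18 and 0.32 in intestine. In liver the values were 0.09, -0.18, -0.07 and 0.02. Intestine and liver arrays of 1 number correlated at -0.04, 0.05, 0.04, -0.02 and 0.08 in OMT recipients. In YMT recipients the values were 0.15, 0.08, 0.01 and 0.03. These correlations cannot settle the pairing, since tissues of 1 animal need not deviate alike. Median centring and quantile normalization moved the median of all genes by at most 0.05, and 61 and 49 of 74 members were then negative in intestine and 66 and 67 in liver.

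Over all tested members, signs changed for 7 in intestine and 4 in liver under median centring, 7 and 5 under quantile normalization, 5 and 1 under array weights, 9 and 16 without OMT replicates 1 and 2, and 1 to 9 and 1 to 7 with 1 array left out. None of these was past the threshold before or after the change. Among the members named by rule, 13 differences changed sign. Under array weights Atp5g1, Cox4i2 and Cox7a1 in intestine were at -0.047, 0.015 and -0.024. Under quantile normalization Atp5g1, Sdhb and Uqcr11 in intestine were at -0.0014, 0.029 and 0.039. Under median centring Atp5g1, Atp5g3 and Cox7a1 in intestine were at -0.01, -0.028 and -0.0080. Without OMT replicates 1 and 2, Atp5g1, Cox4i2 and Cox7a1 in intestine were at -0.071, 0.10 and -0.084, and Atp5b, Atp5g2, Atp5g3, Sdhc, Sdhd and Uqcrc2 in liver at 0.0175, 0.011, 0.03, 0.0092, 0.16 and 0.0125. With each array left out in turn, the intestinal ranges were -0.03 to 0.19 for Atp5g1, -0.0325 to 0.0725 for Atp5g3, -0.0475 to 0.085 for Cox4i2, -0.0825 to 0.19 for Cox7a1, -0.0625 to 0.025 for Uqcr11, and the liver ranges -0.064 to 0.016 for Atp5g2, -0.015 to 0.0875 for Cox6a2, -0.095 to 0.0025 for Sdhc, -0.14 to 0.0375 for Sdhd.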
